A study of Sus scrofa with 20 samples.

Results

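The genes described here mark the Sertoli cell, the somatic cell of the seminiferous tubule that surrounds and feeds the germ cells. Members were chosen by symbol from a list of 9 genes, AMH, INHA, INHBA, INHBB, FSHR, SOX9, CLU, WT1 and GATA4, and 5 of the 9 matched a reference ID by symbol, on 5 of the 21755 reference IDs. The matched members were AMH (NM_214310.1), INHBA (NM_214028.1), SOX9 (NM_213843.1), WT1 (NM_001001264.1) and CLU (NM_213971.1). INHA, INHBB, FSHR and GATA4 had no ID matched by symbol and are not analysed here. The same holds for every listed gene below that is not counted as matched, since most reference IDs have no symbol here.

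Total RNA was extracted from the testis and the liver of boars with high or low androstenone, the testicular steroid that causes part of boar taint. Libraries were made by an mRNA-Seq protocol, with 5 libraries in each of the 4 groups. All boars came from a cross of Duroc with F2 animals, which were bred from Leicoma x German Landrace F1 animals and Large White pigs, and they were 116 days old on average. Per the study's methods, testis and liver came from the same boars, but the labels do not say which testis and liver libraries share a boar, so tests across the tissues treated the 20 libraries as independent. The groups differed by androstenone level alone as far as the labels state, and the labels name no treatment. RNA was copied into full-length cDNA and read as single reads of 100 bp on 1 lane per library. Whole tissue was sequenced, so a smaller share of Sertoli cells and less RNA of these genes per Sertoli cell cannot be told apart.

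Sertoli cells multiply before puberty and then mature, join by tight junctions into the blood-testis barrier and support spermatogenesis. Immature Sertoli cells secrete much anti-Müllerian hormone, the product of AMH, which makes the Müllerian ducts regress in the male fetus, and its level falls at puberty. SOX9 and WT1 are transcription factors of testis formation and of the Sertoli cell lineage, INHBA encodes the inhibin beta A subunit of activin A and inhibin A, and CLU encodes clusterin, a secreted chaperone abundant in the fluid around germ cells.

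Total counts lay between 6161397 and 15975386 in testis and between 5796973 and 26783002 in liver. A count of 3 corresponded to 0.188 to 0.487 counts per 1000000 (CPM) in testis and 0.112 to 0.518 CPM in liver, and values under this floor were read as not detected, for counting error only. CPM below were scaled by edgeR's TMM method within each tissue, except in the comparison of the tissues, where all 20 libraries were scaled together. The tissue labels fit their markers, since all 8 spermatid IDs were called higher in testis and all 6 hepatocyte IDs higher in liver. The summed level of these 8 IDs of spermatid genes, such as CRISP2, ODF2, TNP1 and SPA17, was 4018 CPM in low androstenone replicate 2 and between 8217 and 12313 CPM in the other 9 testes. Among the livers, low androstenone replicate 1 had 39 counts of CRISP2, 39 of INSL3 and 30 of TNP1, against at most 4, 5 and 9 in any other liver. The summed level of the 8 spermatid IDs set it less apart. It was 14.9 CPM there, against 12.0 CPM in high androstenone replicate 3 and 10.5 CPM in high androstenone replicate 2. Among the testes, high androstenone replicate 1 had 43.7 CPM of albumin (ALB), against 0.706 to 15.2 CPM elsewhere. AMBP, another hepatocyte gene, was also highest there, at 5.73 CPM against at most 1.86 CPM elsewhere. The summed level of the 6 hepatocyte IDs did not set that testis apart. It was 93.4 CPM there, against 161 CPM in low androstenone replicate 5 and 117 CPM in low androstenone replicate 2. In testis that sum was mostly APOA1, with means of 77.9 CPM in the low and 49.8 CPM in the high group, so it says little of ALB and AMBP. Fold changes of the members, and those of other genes that moved with these libraries, are also given without them.

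The first comparison asked whether the Sertoli genes differed between testes of boars with high and low androstenone. CLU had a lower mean in the high androstenone testes, 13290 ± 5266 CPM (SD, n = 5) against 21853 ± 5034 CPM (SD, n = 5), but the difference did not pass the test across all reference IDs. AMH, INHBA, SOX9 and WT1 had overlapping values in both groups. None of the 5 members passed the call of an adjusted p under 0.05 with a fold of at least 1.5, and 0.0% of the 18340 IDs tested did so in edgeR's quasi-likelihood test with Benjamini-Hochberg adjustment. At an unadjusted p under 0.05, 1 of the 5 members (CLU) passed, against 9.49% of all IDs, or 6.31% when lower IDs alone are counted. The libraries of both groups overlapped for all 5 members, and 1.79% of all IDs had groups that did not overlap. DESeq2 called 120 IDs in this comparison, and CLU was not called by it (adjusted p = 0.348).

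**Figure D1:**
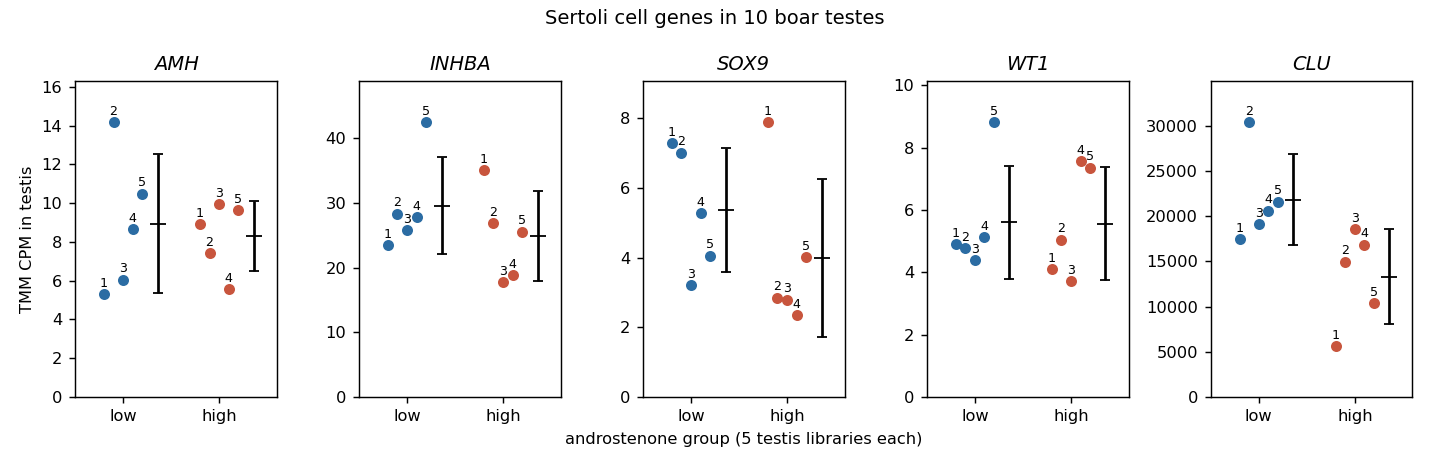
TMM-scaled CPM of the 5 matched Sertoli cell genes in each testis library, with the androstenone group on the horizontal axis, 1 point and replicate number per library, and the mean with its SD as a black mark and bar. For CLU, 4 of the 5 high androstenone testes sit below the lowest low androstenone testis, while the groups overlap for the other members.

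CLU, the secreted chaperone, was among the most abundant transcripts of the testis. It took between 0.547% and 3.12% of all counts of a testis library and ranked between 1 and 6 among the reference IDs by counts, which are not corrected for transcript length. In the low androstenone testes, CLU was at 17460, 30413, 19170, 20613 and 21607 CPM in replicates 1 to 5. In the high androstenone testes it was at 5611, 14981, 18596, 16849 and 10413 CPM. All 5 high androstenone testes lay below the median of the low group, and 4 lay below its lowest library. High androstenone replicate 3 overlapped with the low group, and high androstenone replicate 1 was the lowest of the 10 testes.

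The fitted CLU level of the high androstenone testes was 0.608 times that of the low group (log2 fold change -0.72, SE 0.30, 95% interval -1.36 to -0.08). Its edgeR unadjusted p was 0.0299, and its adjusted p over all IDs was 0.472. An exact two-sided permutation test of the 5 libraries against 5 gave p = 0.0159, where 0.00794 is the smallest p possible. Leaving out 1 library at a time gave log2 fold changes from -0.86 to -0.51 with unadjusted p from 0.0185 to 0.0937, the smallest change (edgeR unadjusted p = 0.0637) without high androstenone replicate 1, the library with raised ALB. The fold change was -0.56 (edgeR unadjusted p = 0.0667) without low androstenone replicate 2, the library with few spermatid transcripts. Among the 5 testis libraries over 10000000 counts it was -0.97, and among the 5 under it -0.62.

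Claudin 11 (CLDN11), a tight junction protein that Sertoli cells make for the blood-testis barrier, was read beside CLU. CLDN11 was at 214, 225, 279, 236 and 168 CPM in the low androstenone testes and at 60.7, 226, 252, 156 and 105 CPM in the high androstenone testes. High androstenone replicates 1 and 5 were the lowest of the 10 testes for both genes. The ratio of CLU counts to CLDN11 counts was 68.6 to 135 in the low group (median 87.4) and 66.3 to 108 in the high group (median 92.4), so the groups overlapped. In high androstenone replicate 1 the ratio was 92.4, inside the range of the low group. CLDN11 itself had a log2 fold change of -0.49 (SE 0.30, edgeR unadjusted p = 0.125), and -0.26 without high androstenone replicate 1.

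**Figure D2:**
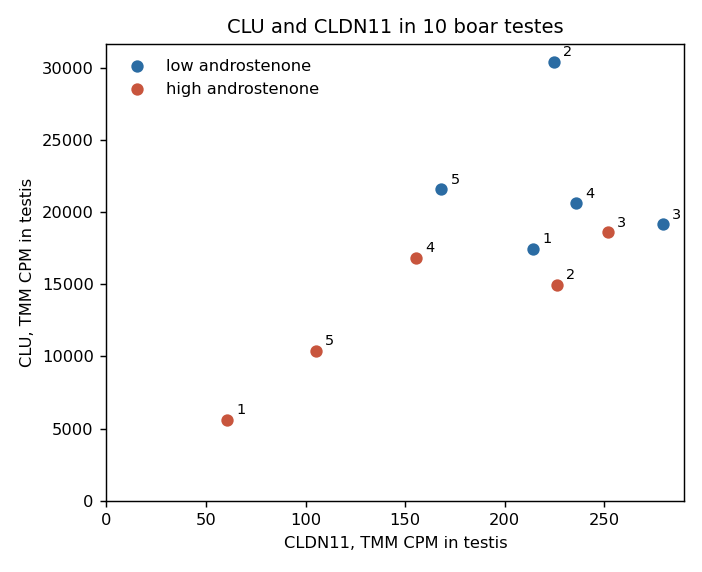
TMM-scaled CPM of CLU (vertical axis) against CLDN11 (horizontal axis) in the 10 testes, 1 point per library with its replicate number, coloured by androstenone group. High androstenone replicates 1 and 5 are lowest on both axes, at 60.7 and 105 CPM of CLDN11 and 5611 and 10413 CPM of CLU.

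AMH, the hormone of the immature Sertoli cell, was low in all testes. It was at 5.32, 14.2, 6.05, 8.67 and 10.5 CPM in the low androstenone testes, from 38 to 119 counts per library. In the high androstenone testes it was at 8.93, 7.42, 9.97, 5.55 and 9.64 CPM, from 33 to 125 counts. The high group lay inside the range of the low group, and low androstenone replicate 2 was the highest of the 10 testes. The log2 fold change was -0.10 (SE 0.27, 95% interval -0.67 to 0.47, edgeR adjusted p = 0.931), and it was 0.13 without low androstenone replicate 2. The interval leaves room for a level between 0.631 and 1.39 times that of the low group. AMH was the single gene matched to an ID of the 4 listed for immature Sertoli cells (AMH, CYP19A1, NCAM1 and KRT18), so the other genes of this list are not described.

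Low androstenone replicate 2, the testis with the fewest spermatid transcripts, was the highest of the 10 for AMH (14.2 CPM) and CLU (30413 CPM). It was not set apart for WT1, at 4.78 CPM, or for INHBA, at 28.4 CPM. Its part in the AMH and CLU values was tested by leaving it out, as given above.

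The ratio of AMH to CLDN11 counts, an immature against a mature Sertoli gene, ran from 0.0217 to 0.0630 in the low group (median 0.0368). In the high group it ran from 0.0328 to 0.147 (median 0.0396). High androstenone replicate 1 had the highest ratio of the 10 testes, and without it the high group reached 0.0915. The medians differed by less than the range within either group. The ratio is one of counts on reference IDs, and the maturity of Sertoli cells was not measured. The mature list, which holds CLU and CLDN11, had 4 of 8 genes matched, and 0 were called.

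INHBA, the activin and inhibin subunit, was at 23.5, 28.4, 25.8, 27.8 and 42.5 CPM in the low androstenone testes. In the high androstenone testes it was at 35.1, 26.9, 17.8, 18.8 and 25.6 CPM. High androstenone replicates 3 and 4 lay below the lowest low androstenone testis, and the other 3 lay within the range of that group. High over low androstenone, INHBA had a log2 fold change of -0.25 (SE 0.22, 95% interval -0.71 to 0.22, edgeR adjusted p = 0.734), and it was -0.06 without low androstenone replicate 5, the highest library.

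SOX9, which drives testis formation in the embryo and stays on in Sertoli cells, was at 7.28, 7.02, 3.21, 5.28 and 4.06 CPM in the low androstenone testes. In the high androstenone testes it was at 7.89, 2.85, 2.79, 2.36 and 4.02 CPM, from 14 to 106 counts. Of the high androstenone testes, 3 lay below the lowest low androstenone testis, while replicate 1 was the highest of all 10. The log2 fold change was -0.38 (SE 0.34, 95% interval -1.11 to 0.35, edgeR adjusted p = 0.738). Without high androstenone replicate 1 it was -0.79, with an unadjusted p of 0.0158 and an adjusted p of 0.474. Among the libraries over 10000000 counts, where high androstenone replicate 1 belongs, the SOX9 fold change was 0.36 on the log2 scale, and among those under it -1.19.

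WT1, a zinc finger factor that Sertoli cells keep through life, was at 4.90, 4.78, 4.39, 5.12 and 8.82 CPM in the low androstenone testes. In the high androstenone testes it was at 4.09, 5.05, 3.72, 7.57 and 7.37 CPM, from 28 to 85 counts. The ranges overlapped, and the highest testis, low androstenone replicate 5, lay in the low group. WT1 had a log2 fold change of -0.03 (SE 0.27, 95% interval -0.61 to 0.55, edgeR adjusted p = 0.980), and it was 0.02 when libraries were scaled by total counts alone. In the RefSeq table WT1 overlaps a long noncoding RNA gene, and the reads of the pair cannot be told apart here if strand was not kept.

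No pair of members varied together from boar to boar past the test's threshold. Of the 10 pairs of members over the 10 testes, 0 had an adjusted p under 0.05 in a permutation test of pairings with 100000 resamples. The highest correlation was that of INHBA with SOX9 (Pearson r = 0.49, permutation p = 0.158, adjusted p = 0.830, Spearman rho = 0.60, permutation p = 0.0735). Without the pair of libraries farthest from the median INHBA level, r was 0.63. The 5 libraries over and the 5 under 10000000 counts were too few for a correlation of their own. CLU, which made up nearly all of the summed CPM of the members, had r between -0.19 and 0.16 with the other 4 members. These values depended on single libraries. Without high androstenone replicate 1, r was 0.39 with AMH, 0.28 with INHBA, 0.41 with SOX9 and -0.28 with WT1. Without low androstenone replicate 2, r was -0.19 with AMH, -0.24 with INHBA, -0.47 with SOX9 and 0.21 with WT1. The summed level of the members other than CLU was 39.4 to 65.9 CPM in the low and 34.3 to 56.0 CPM in the high androstenone testes.

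For each member, the 3 IDs with a symbol that followed it most closely over the 10 testes were listed, out of 3535 IDs compared (3536 for SOX9). These correlations were picked as the highest of many and are given as descriptions. AMH was followed by HMGN4 (r = 0.94), MRPS5 (0.90) and KMT2B (0.86). In the 10 livers, which had no part in the choice, AMH had r = 0.75 with HMGN4, 0.21 with MRPS5 and 0.0057 with KMT2B. SOX9 was followed by C4H8orf59 (r = 0.97), SNRPF (0.95) and TNKS2 (0.94), with r in the livers of 0.49, 0.38 and 0.68. WT1 was followed by DEAF1 (r = 0.93), PDE12 (0.86) and OGFOD2 (0.84), for which liver gave no value. CLU was followed by PDIA6 (r = 0.99), a disulfide isomerase of the endoplasmic reticulum, and by MAPK1IP1L (0.98) and DKC1 (0.98). In the livers, CLU and PDIA6 had r = 0.88, CLU and MAPK1IP1L 0.76, and CLU and DKC1 0.69. Between the testis groups PDIA6 differed by -0.63 on the log2 scale (SE 0.24, edgeR unadjusted p = 0.0204, adjusted p = 0.446), and by -0.49 without low androstenone replicate 2 (edgeR unadjusted p = 0.0589).

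INHBA was followed by ITGB3 (r = 0.97), an integrin of platelets, by MUC13 (0.95), an epithelial mucin, and by SPO11 (0.93), the enzyme that cuts DNA at meiosis. In the livers INHBA had r = 0.86 with ITGB3, 0.57 with MUC13 and 0.71 with SPO11. The SPO11 ID was at 112 ± 31.4 CPM in the 10 testes and 104 ± 44.3 CPM in the 10 livers (SD, 20-library scale), although liver holds no meiotic cells. The RefSeq table lists the INHBA entry with a biotype other than protein-coding, between the coding genes NAA38 and CHD3. Whether the reads on the INHBA ID came from INHBA transcripts was not tested, and its values are read as those of that reference ID.

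**Figure D3:**
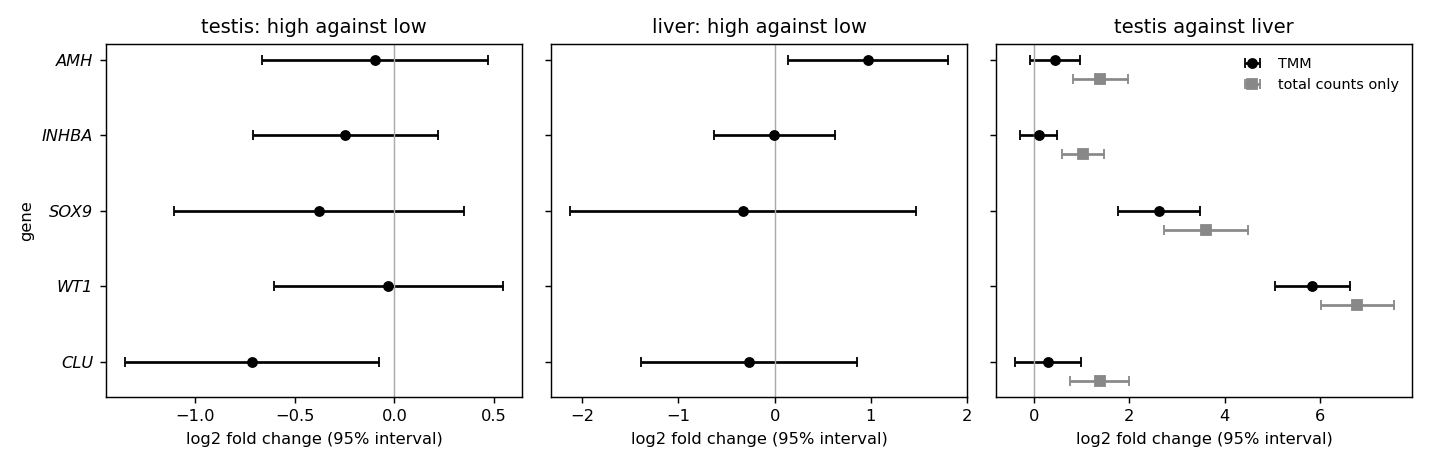
Log2 fold changes with 95% intervals of the members from edgeR's quasi-likelihood fit, for high against low androstenone in testis, the same in liver, and testis against liver, where black circles use TMM and grey squares total counts only. The CLU interval in testis (-1.36 to -0.08) and the AMH interval in liver (0.14 to 1.81) exclude 0 before adjustment, and WT1 in liver was not tested.

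The second comparison asked where the members were measured, in testis against liver. WT1 and SOX9 were higher in testis by 5.83 and 2.62 on the log2 scale, while AMH, INHBA and CLU did not pass the test. With all 20 libraries scaled together, 2 of the 5 members were called, against 75.8% of the 19065 IDs tested, or 43.5% when higher IDs alone are counted. The share of members called was below that background. With androstenone group and replicate number as a block, as if same-numbered libraries shared a boar, WT1 was at 5.77 and SOX9 at 2.84, and both stayed called. Testis and liver libraries did not overlap for WT1 and SOX9, and such a separation was seen for 42.8% of all IDs, in 27.5% with testis higher.

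**Figure D4:**
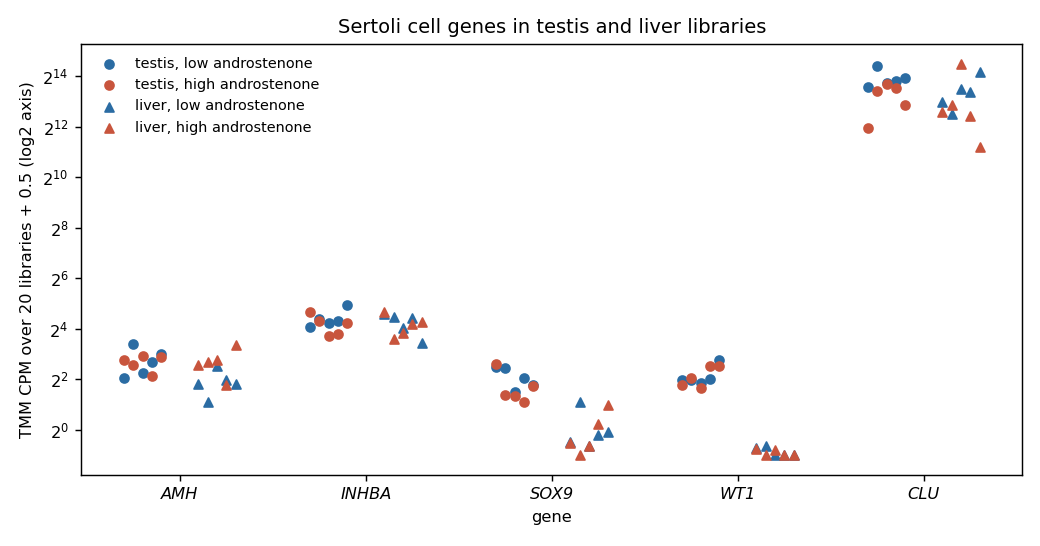
TMM-scaled CPM of the members over all 20 libraries plus 0.5, on a log2 axis, with circles for testis, triangles for liver and colour for the androstenone group, 1 point per library. WT1 and SOX9 lie apart in testis and liver, with all 10 livers lower, and AMH, INHBA and CLU overlap.

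WT1 was the most testis-bound member. It had between 28 and 100 counts in each testis library, whereas 6 of the 10 livers had 0 counts and the others 1 or 2. Over all libraries this made 571 counts in testis and 5 in liver, a ratio of 134 between counts per total (95% interval 56.9 to 413, for counting error only). The fitted log2 fold change was 5.83 (SE 0.38, edgeR adjusted p = 1.72e-13). All liver values were under the floor of 3 counts, so WT1 was not detectable in liver at this depth.

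SOX9 had between 14 and 106 counts in each testis library. The livers had 2, 22, 1, 2 and 4 counts in the low and 2, 0, 2, 3 and 8 counts in the high androstenone group. Low androstenone replicate 2 thus held 22 of the 46 liver counts, and its 1.64 CPM came close to the lowest testis, which had 1.67 CPM. The fitted log2 fold change was 2.62 (SE 0.41, edgeR adjusted p = 2.64e-06), and it was 3.13 without that liver. SOX9 is also made by bile duct cells of the liver.

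The AMH ID was read in every liver, with 13 to 86 counts, well above the floor of 3 counts. In the RefSeq table AMH lies between the coding genes SF3A2 and JSRP1. Whether the reads on its ID came from AMH transcripts was not tested in either tissue. On the 20-library scale AMH was at 6.15 ± 1.96 CPM (SD, n = 10) in testis and 4.70 ± 2.40 CPM (SD, n = 10) in liver. AMH had a testis over liver difference of 0.45 on the log2 scale (SE 0.25, 95% interval -0.07 to 0.98, edgeR adjusted p = 0.104), and a permutation test of the 20 libraries gave p = 0.0941. Without liver high androstenone replicate 5, the liver with most AMH, the log2 fold change was 0.59 with an adjusted p of 0.0300. Liver low androstenone replicate 1, which had the most counts of CRISP2, INSL3 and TNP1, had 2.98 CPM of AMH, below the median of the livers (4.35 CPM).

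CLU is made by many organs, liver among them, and was at 12512 ± 4725 CPM (SD, n = 10) in testis and 9895 ± 6412 CPM (SD, n = 10) in liver. It ranked between 12 and 49 among the reference IDs by counts in liver. The log2 fold change was 0.30 (SE 0.34, edgeR adjusted p = 0.414), and 0.66 with an adjusted p of 0.0362 without liver high androstenone replicate 3, the liver with most CLU. INHBA was at 19.4 ± 5.25 CPM in testis and 18.0 ± 5.02 CPM in liver (SD, n = 10 each), with a log2 fold change of 0.10 (SE 0.18, 95% interval -0.28 to 0.48).

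The scaling decided whether AMH, INHBA and CLU differed between the tissues. When libraries were scaled by total counts alone, all 5 members were called higher in testis, as were 59.6% of all IDs, with 78.4% called in either direction. The members then had log2 fold changes of 1.40 for AMH, 1.03 for INHBA, 3.61 for SOX9, 1.38 for CLU and 6.78 for WT1. The median of all IDs moved with them, from 0.30 under TMM to 1.28 under total counts. Relative to these medians, the members stood nearly the same under both scalings. AMH was at 0.15 and 0.12 from the median ID under TMM and total counts, INHBA at -0.20 and -0.24, CLU at 0.00 and 0.10, SOX9 at 2.32 and 2.34, and WT1 at 5.53 and 5.50. ALB alone took 6.02% to 13.0% of all counts of a liver library.

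The third comparison asked for the effect of the androstenone group in liver. AMH had a mean of 4.48 ± 1.96 CPM (SD, n = 5) in the high and 2.31 ± 1.02 CPM (SD, n = 5) in the low androstenone livers, and all 4 members tested overlapped between the groups. Of the 4 members tested, 0 were called, as was the case for 0.0% of the 15855 IDs. At an unadjusted p under 0.05, 1 of the 4 members (AMH) passed, against 2.93% of all IDs, or 1.24% when higher IDs alone are counted. Groups that did not overlap were seen for 0.505% of all IDs. DESeq2 called 7 IDs, and AMH was not among them (adjusted p = 0.964).

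AMH was at 1.95, 1.10, 3.88, 2.47 and 2.15 CPM in the low androstenone livers. In the high androstenone livers it was at 3.84, 4.42, 4.32, 2.23 and 7.61 CPM. Of the high androstenone livers, 3 lay above the highest low androstenone liver, and replicate 4 lay among the low group. The log2 fold change was 0.98 (SE 0.39, 95% interval 0.14 to 1.81), with an edgeR unadjusted p of 0.0248 and adjusted p of 1.00. An exact two-sided permutation test gave p = 0.0397. The fold change was 0.92 (edgeR unadjusted p = 0.0556) without low androstenone replicate 1, the liver with the most counts of CRISP2, INSL3 and TNP1. It was 0.71 (edgeR unadjusted p = 0.0966) without high androstenone replicate 5, the highest of the 10 livers. Among the libraries over 10000000 counts it was 1.23, and among those under it 0.57.

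The difference of the androstenone effect between the tissues was tested as an interaction, and 0 of the 5 members were called, against 0.0% of the 19065 IDs. AMH had an interaction of -1.01 on the log2 scale (SE 0.47, unadjusted p = 0.0432, edgeR adjusted p = 1.00), and its unadjusted p was 0.0752 with the block of group and number. At an unadjusted p under 0.05, 4.67% of all IDs passed. In liver, CLU was at 5275, 3830, 8454, 7710 and 12935 CPM in the low and 4328, 5384, 16105, 4148 and 1808 CPM in the high androstenone livers, with a log2 fold change of -0.27 (SE 0.53). Without high androstenone replicate 3 it was -0.96. The CLU interaction was -0.41 (SE 0.68, unadjusted p = 0.548), so a CLU difference particular to testis was not shown. INHBA in liver ran from 7.34 to 15.3 CPM in the low and from 8.53 to 17.5 CPM in the high group, with a log2 fold change of -0.00 (SE 0.29, 95% interval -0.63 to 0.62).

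Other genes of the same pathways were read from lists of symbols. Of the receptors, binding proteins and signal carriers of AMH, activin and inhibin, 10 of 19 symbols were matched and 9 were tested between the testis groups. Of these 9, 0 passed even an unadjusted p under 0.05, against 9.49% of all IDs. AMHR2, the receptor of AMH itself, was among the symbols with no matched ID and is not analysed here, so these counts say nothing of it. The carriers SMAD1 and SMAD4 had log2 fold changes of 0.13 and 0.15 there, TGFBR3, a co-receptor of inhibin, -0.03, and the activin receptor ACVR1 -0.59 (edgeR unadjusted p = 0.0538). For ACVR1 it was -0.66 (edgeR unadjusted p = 0.0499) without high androstenone replicate 1, and -0.45 without low androstenone replicate 2. Between the tissues, BMPR1B was higher in testis by 5.93 on the log2 scale, and ACVR1, ACVR1B, the activin-binding follistatin (FST), SMAD3 and the liver activin subunit INHBE were lower, the last by -9.84. Of the 10 list IDs, 9 had a negative log2 fold change between the tissues under TMM, with a median of -1.31 against 0.30 for all IDs. Over all 19065 IDs, 8291 were called higher and 6162 lower in testis. SMAD1 (-0.47), SMAD4 (-0.40) and TGFBR3 (-0.46) differed little, and the direction of such small differences depends on the scaling. Under total counts the median of all IDs was 1.28, and values of the list under it are not given here.

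Of the 11 factors of gonad formation and Sertoli identity, 6 were matched and 0 were called between the testis groups. NR0B1, a nuclear receptor of gonad and adrenal, and GATA6 had unadjusted p of 0.0214 and 0.0423, with log2 fold changes of -0.89 and -0.74. Among all IDs, 9.49% had an unadjusted p under 0.05 there, or 6.31% when lower IDs alone are counted. Without low androstenone replicate 2, GATA6 was at -0.28 (edgeR unadjusted p = 0.246). DMRT1, which keeps Sertoli cells male, was at 62.2 CPM (mean of the low group) and 57.4 CPM (mean of the high group). Low androstenone replicate 2 was at 95.1 CPM of DMRT1, and without it the mean of the low group was 54.0 CPM and the log2 fold change 0.10, turned from -0.11. ZFPM2 had a log2 fold change of 0.02. Between the tissues, DMRT1 (10.9), NR5A1 (6.98) and NR0B1 (4.10) were higher in testis on the log2 scale, and GATA6 (-2.95) and ZFPM2 (-0.92) were lower. The ZFPM2 difference was read under TMM, and total counts moved the median of all IDs from 0.30 to 1.28, so its direction may depend on the scaling.

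FSHR was not analysed here, and the genes that carry its signal showed no called difference. Of 13 symbols, 6 were matched on 13 IDs, and 3 IDs had an unadjusted p under 0.05 between the testis groups, all 3 of GNAS, the stimulatory G protein subunit, with negative fold changes. The share of all IDs with such a p was 9.49%, or 6.31% when lower IDs alone are counted. Without low androstenone replicate 2, 0 of the 13 IDs had an unadjusted p under 0.05. The GNAS IDs share sequence, and how shared reads were counted is not given in the sources used here, so they are not separate measurements. The kinase subunits PRKAR1A and PRKAR2A had log2 fold changes of -0.01 and 0.30. Between the tissues, PRKAR1A (1.44), PRKAR2A (2.08) and both IDs of PDE4B were higher in testis, and the 7 GNAS IDs were lower.

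Of 20 genes of Sertoli cell junctions, transport and germ cell support, 11 were matched and 0 were called between the testis groups. SCARB1, the receptor that takes up lipid from lipoproteins and from dying germ cells, was at 19.6 CPM in the low and 33.7 CPM in the high group (means, log2 fold change 0.78, edgeR unadjusted p = 0.00972), and steroid-making Leydig cells also use it. LDHA, which makes the lactate fed to germ cells, had 0.08 and CTNNB1, a junction protein, 0.01. Between the tissues, CLDN11 (11.9), ESPN (2.18) and KITLG (1.39) were higher in testis, and OCLN, CTNNB1, TF, SLC16A1 and CTSL were among those lower. CTNNB1 was at -0.60 under TMM, a small difference whose direction may depend on the scaling. In the livers, 0 IDs of these 4 lists had an unadjusted p under 0.05 between the androstenone groups, against 2.93% of all IDs.

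Markers of other testis cells were read beside the CLU values of the testis groups, and their part in them was not tested. Over all 18340 IDs, 9.49% had an unadjusted p under 0.05 in this comparison, or 6.31% when lower IDs alone are counted. Whether any of these short lists departed from that share was not tested. The 3 matched genes of peritubular muscle-like cells, ACTA2 (-0.99, edgeR unadjusted p = 0.0176), MYLK (-0.73, edgeR unadjusted p = 0.00480) and CNN1 (-0.72, edgeR unadjusted p = 0.0732), all had negative log2 fold changes, and their summed level was 346 to 879 CPM in the low and 174 to 507 CPM in the high group. Of 4 macrophage genes, CSF1R, PTPRC and AIF1 had an unadjusted p under 0.05 and CD14 did not, with sums of 8.26 to 25.6 CPM in the low and 8.75 to 14.6 CPM in the high group. Their log2 fold changes were -0.78 for CSF1R, -0.82 for PTPRC, -0.71 for AIF1 and 0.02 for CD14, and AIF1 missed that threshold without low androstenone replicate 2 (edgeR unadjusted p = 0.0753) and CSF1R without high androstenone replicate 1 (edgeR unadjusted p = 0.0731). Of the spermatogonia genes, 5 of 9 were matched and 4 tested, and 2 had positive and 2 negative log2 fold changes. UCHL1 was at -0.98 (edgeR unadjusted p = 1.70e-04) and SALL4 at -0.55, while KIT was at 0.10 and GFRA1 at 0.72. The sums of the list, 59.8 to 107 CPM and 41.1 to 61.5 CPM, were mostly UCHL1 (means of 73.1 and 37.1 CPM). Of the 7 matched Leydig cell genes, 5 had positive and 2 negative log2 fold changes, with sums of 1632 to 6074 CPM and 1788 to 7201 CPM. The unadjusted threshold of 0.05 was passed by CYP17A1 (0.86, edgeR unadjusted p = 0.0453) and FDX1 (0.52, edgeR unadjusted p = 0.0127), and not by CYB5A (0.65), INSL3 (0.23), LHCGR (0.18), NR5A1 (-0.23) or HSD3B1 (-0.36). Without low androstenone replicate 2 the unadjusted p of CYP17A1 was 0.0832 in edgeR, and without high androstenone replicate 1 it was 0.00286. None of the 4 meiotic, 8 spermatid or 2 endothelial IDs had an unadjusted p under 0.05, and of 6 hepatocyte genes AMBP had the only one, with a log2 fold change of 1.36 (edgeR unadjusted p = 0.0345). High androstenone replicate 1 held 5.73 CPM of AMBP against at most 1.86 CPM in any other testis, and without it the log2 fold change was 0.55 (edgeR unadjusted p = 0.305). All these fold changes missed the adjusted threshold.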

How the data were processed

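Count tables of 20 libraries from testis and liver were analysed, 5 per tissue and androstenone group, as the labels assign them. The authors filtered reads with CASAVA 1.7, aligned them with BWA to RefSeq mRNA and UniGene sequences of an earlier pig assembly, and deposited raw counts of reads per reference ID. How reads that fit several sequences were counted is not given in the sources used here. Each library lists 21785 lines for 21755 IDs. The 10 IDs listed 4 times, with equal counts, were used once. Symbols came from a RefSeq table of a later assembly (Sscrofa11.1), which matched 6654 IDs, so no coordinates are given. The members and lists were chosen with earlier results of these data known.

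Counts were tested in edgeR 4.0.16 (R 4.3.3) by the quasi-likelihood test after TMM, on IDs with at least 10 summed counts, with Benjamini-Hochberg adjustment over all IDs. A call needed an adjusted p under 0.05 and a fold of at least 1.5. Each tissue was fitted alone. The tissue contrast (with androstenone group as covariate) and the interaction used all 20 libraries. For single members, log2(CPM + 0.5) was permuted between groups, two-sided, exactly for 5 against 5 libraries and with 100000 resamples for 10 against 10. The spread is that between boars of a group, since each library is 1 sample. Libraries of a group differed by more than counting noise in every pair. The procedure was tested on simulated data.

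Named genes were all 9 members, the 4 genes of each list with the highest mean CPM in testis, every called list gene, and the 3 IDs of at least 5 CPM with a symbol that correlated best with each member. Other list genes named, those with an unadjusted p under 0.05 and CLDN11 beside CLU, were chosen after their values were seen, and some genes that this rule names are not reported here. Alternatives were RLE and total-count scaling, other count filters, DESeq2 1.42.0, summing per symbol, a single fit, the replicate block, depth terms and leaving out each library. Summaries used Python 3.11.15 with scipy 1.17.1.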

Additional observations from a re-analysis of the deposited data

Results flagged for a closer look

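In 18 groups of 5 libraries, each member's values were searched for 1 library far from the rest, and 4 such values were found. The search used Dixon's test at its 95% critical value on untransformed CPM. Chance alone meets that value in about 1 of 20 groups if values are normally distributed, which was not tested. All 4 values found were high ones, so their number is not read against that rate. INHBA was at 42.5 CPM in testis low androstenone replicate 5, against 23.5 to 28.4 CPM in the other 4 testes of its group. WT1 was at 8.82 CPM in the same library, against 4.39 to 5.12 CPM. SOX9 was at 1.10 CPM in liver low androstenone replicate 2, against 0.108 to 0.319 CPM, from 1 to 4 counts. CLU was at 16105 CPM in liver high androstenone replicate 3, against 1808 to 5384 CPM. These values were scaled by TMM. By total counts alone, CLU in that liver was at 11965 CPM, against 2059 to 5239 CPM in the rest of its group. INHBA in testis low androstenone replicate 5 was then at 38.7 CPM, against 23.4 to 29.1 CPM. The test is not given for total counts, so these flags may depend on the scaling. No effect of androstenone differed between testis and liver past the adjusted threshold for any member.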

How the results depend on the processing

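CLU in testis and AMH in liver kept their direction in every alternative run, and no member was called between androstenone groups under any of them. Their unadjusted p (edgeR or DESeq2) varied over the alternatives that kept all 10 libraries of a tissue or split them by depth. It ran from 0.0101 to 0.184 for CLU in testis and from 0.0113 to 0.355 for AMH in liver. Counts of called IDs were less stable. DESeq2 gave 120 in testis, 7 in liver and 1 for the interaction, where edgeR gave 0 in each, and the 5 testis libraries under 10000000 counts gave 5. Leaving out 1 library at a time gave 0 to 2 calls in testis (2 without low androstenone replicate 5), 0 to 0 in liver and for the interaction, and 14294 to 14451 between tissues. Replicate numbers were not taken to pair the libraries, since the labels do not say which libraries share a boar. Same-numbered testis libraries of both groups had correlated deviations over 0.1 in 3 of 5 pairs. Those are of different boars, so this count cannot show whether testis and liver of 1 number share a boar. For testis with liver of the same group and number, which may or may not be of 1 boar, it was 7 of 10, and 4 of 10 testes correlated best with the liver of their own number. With the replicate number (across tissues, group and number) as a block, CLU in testis was -0.81 and the SOX9 interaction -0.054, turned from 0.18, with 0 calls in testis and in liver and 14324 between tissues. It changed no call of a member.

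Some log2 fold changes that did not pass the test turned sign. SOX9 in testis, at -0.38, was 0.36 among libraries over 10000000 counts. WT1 in testis was 0.022 with total counts and 0.37 among libraries under 10000000 counts. In liver, INHBA was 0.00026 with at least 50 counts, 0.00058 in DESeq2, 0.00068 with a depth covariate and 0.12 among libraries over 10000000 counts, CLU was 0.46 among those, and SOX9 was 1.49 among those under it. The correlation r without the pair of farthest libraries was -0.15 for AMH with CLU, 0.028 for AMH with WT1, -0.72 for INHBA with WT1, 0.54 for SOX9 with CLU and -0.015 for CLU with WT1. The cause was not tested.

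Leaving out 1 library at a time, log2 fold changes in testis ran from -0.23 to 0.13 for AMH, -0.40 to -0.06 for INHBA, -0.79 to -0.25 for SOX9, -0.86 to -0.51 for CLU and -0.16 to 0.21 for WT1. In liver they ran from 0.71 to 1.26 for AMH, -0.15 to 0.11 for INHBA, -1.32 to 0.65 for SOX9 and -0.96 to 0.0078 for CLU. The interaction ran from -1.25 to -0.78 for AMH, -0.31 to 0.017 for INHBA, -0.88 to 1.13 for SOX9, -0.69 to 0.33 for CLU and -0.50 to 0.79 for WT1. Depth limits SOX9 and WT1 in liver, which had 46 and 5 counts in all.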
